A study of Homo sapiens with 9 samples.

Results

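The 9 genes PMEPA1, SMAD6, SMAD7, SKIL, TGFBI, ID1, ID2, ID3 and TGFB1 respond to or carry transforming growth factor beta (TGF-beta) and bone morphogenetic protein (BMP) signals, and their mRNA was followed in the hepatocellular carcinoma (HCC) cell line MHCC97L and 2 drug-resistant lines made from it. They are 9 of the 20030 genes in the tables, and all 9 have a row in both the count table and the FPKM table. The 9 genes were selected on differences between the lines in these same libraries, so their levels and fold changes are given as a description, without p-values. Untreated MHCC97L was the parent. MHCC97L-Src had been grown in rising saracatinib until it was stably resistant to 4 μmol/L, and MHCC97L-Oxa was stably resistant to 2 μmol/L oxaliplatin. Each line has 3 libraries, and each resistant line is 1 line, so an effect of the drug and chance differences between cultured populations cannot be told apart. The labels give the treatment as none for the parent, saracatinib for MHCC97L-Src and oxaliplatin for MHCC97L-Oxa. All cells were kept in DMEM with serum. Beyond these labels, whether drug was in the medium at harvest is not given in the sources used here.

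TGF-beta and BMP ligands bind pairs of type I and type II receptor kinases at the cell surface. TGF-beta receptors mainly phosphorylate SMAD2 and SMAD3 and BMP receptors SMAD1, SMAD5 and SMAD9, and both groups enter the nucleus with SMAD4 to switch genes on or off. Many of the induced genes feed back on the pathway: SMAD6 and SMAD7 block receptor SMADs, SKIL represses SMAD-driven transcription, and PMEPA1 sequesters receptor SMADs. ID1, ID2 and ID3 are rapid BMP targets whose proteins bind basic helix-loop-helix transcription factors and keep them off DNA. TGFBI is a secreted matrix protein named for its induction by TGF-beta, and TGFB1 is the ligand itself. In the liver TGF-beta restrains hepatocyte growth and drives fibrosis, and in advanced HCC it is known for epithelial-mesenchymal transition. Oxaliplatin is a platinum drug that damages DNA, and saracatinib is an inhibitor of Src family kinases that is also known to inhibit the BMP type I receptor ACVR1.

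Between 16970486 and 18209213 reads were counted on genes per library. A floor of 3 counts, taken as the smallest detectable amount, correspond to 0.165 to 0.177 CPM, the counts scaled to a common library size, and the lowest count of any of the 9 genes was 17. Of 11 hepatocyte and HCC markers, ALB, AFP, APOB and TTR had 0 counts in all 9 libraries, and APOA1, TF, HNF4A and SERPINA1 reached at most 31 counts, so the defining hepatocyte markers are absent from cells labelled as liver carcinoma. The epithelial keratins KRT8 and KRT18 lay between 563 and 1547 FPKM. The first parental library stands apart: across genes its deviation from the mean of the libraries had a rank correlation of −0.786 with GC content, against −0.256 to 0.703 in the other 8. GC content and length together account for 66.7% of the variance of that deviation. For MHCC97L-Src replicate 2, the library at 0.703, they account for 48.2%. Values corrected for GC content and gene length together are given for most of the 9 genes and for some of the lists.

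The sequences upstream of the start sites are shown as background, since SMAD proteins are known to bind short boxes in DNA. Binding was not measured in these cells, and a link between the boxes and the levels of the genes was not tested. RefSeq holds 14 promoter windows for the 9 genes, each running from 250 bases before to 50 bases after a start, in GRCh38.p14. The box GTCTAGAC, the palindrome known as the SMAD binding element, was searched together with GGCGCC, a GC-rich site known from BMP-responsive genes, CAGAC and GTCT, all on both strands. GTCTAGAC contains GTCT and its complement, and CAGAC contains the complement of GTCT. SMAD6 alone of the 9 genes held GTCTAGAC, at positions −12 to −5 with the start counted as 0, and 0.202% of the 35116 windows in RefSeq hold it. The starts used here are those of RefSeq, and they differ from the gene coordinates given below for SMAD6, ID1, SKIL and TGFBI. By those coordinates the SMAD6 box, at 66702224 to 66702231, spans the first base of the gene, 66702228. The 250 bases before the RefSeq start of SMAD6 (chr15:66701986-66702235, + strand) are shown with that box in capitals.
SMAD6: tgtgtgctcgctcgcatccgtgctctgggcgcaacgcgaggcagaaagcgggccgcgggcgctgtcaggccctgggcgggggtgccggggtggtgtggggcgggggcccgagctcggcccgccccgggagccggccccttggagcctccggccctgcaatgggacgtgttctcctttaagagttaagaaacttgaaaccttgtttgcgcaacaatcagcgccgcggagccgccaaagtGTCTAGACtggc
The box GTCT is common, at 84.0% of all windows and 13 of the 14 windows here, and ID1 is shown as an example. Capitals in the 250 bases before the RefSeq start of ID1 (chr20:31605039-31605288, + strand) mark GTCT and its complement AGAC, which begin at positions −162, −136 and −25.
ID1: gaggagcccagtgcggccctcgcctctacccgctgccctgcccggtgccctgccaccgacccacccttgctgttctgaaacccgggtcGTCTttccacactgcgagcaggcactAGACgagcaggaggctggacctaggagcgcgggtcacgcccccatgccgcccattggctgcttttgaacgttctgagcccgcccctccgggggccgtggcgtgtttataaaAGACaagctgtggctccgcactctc
PMEPA1, SKIL and TGFBI each held 1 GGCGCC, which 19.2% of all windows hold. The 55 bases around it are shown for PMEPA1 (chr20:57711662-57711716, − strand), SKIL (chr3:170357488-170357542, + strand) and TGFBI (chr5:136028840-136028894, + strand), with the site in capitals.
PMEPA1: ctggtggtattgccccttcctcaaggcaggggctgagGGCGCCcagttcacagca
SKIL: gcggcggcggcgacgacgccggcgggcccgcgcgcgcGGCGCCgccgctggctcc
TGFBI: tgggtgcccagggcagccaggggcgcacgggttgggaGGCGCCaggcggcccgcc
CAGAC stood in windows of PMEPA1, SMAD7, SKIL and ID3, and in 45.3% of all windows. The TGFB1 window held none of the 4 boxes. These matches describe letters in these windows only.

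In MHCC97L-Src 8 of the 9 genes were lower than in the parent, from 22.5-fold for ID2 to 2.19-fold for TGFBI on mean CPM, and TGFB1 was the exception. In MHCC97L-Oxa the same genes lay on different sides of the parent: PMEPA1 and TGFB1 stood above it, ID1 and TGFBI within its range, and SMAD6, SMAD7, ID2 and ID3 below it. SKIL overlapped the parent, with a lower mean (7.29 against 22.5 CPM). Set directly against MHCC97L-Oxa, MHCC97L-Src was lower in the 8 genes other than TGFB1, by 8.64-fold for ID2, 7.24-fold for PMEPA1 and 5.07-fold for ID1. The plot of levels by library shows every value. The CPM values are on one scale over all 9 libraries, by the trimmed mean of M-values method (TMM).

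**Figure D1:**
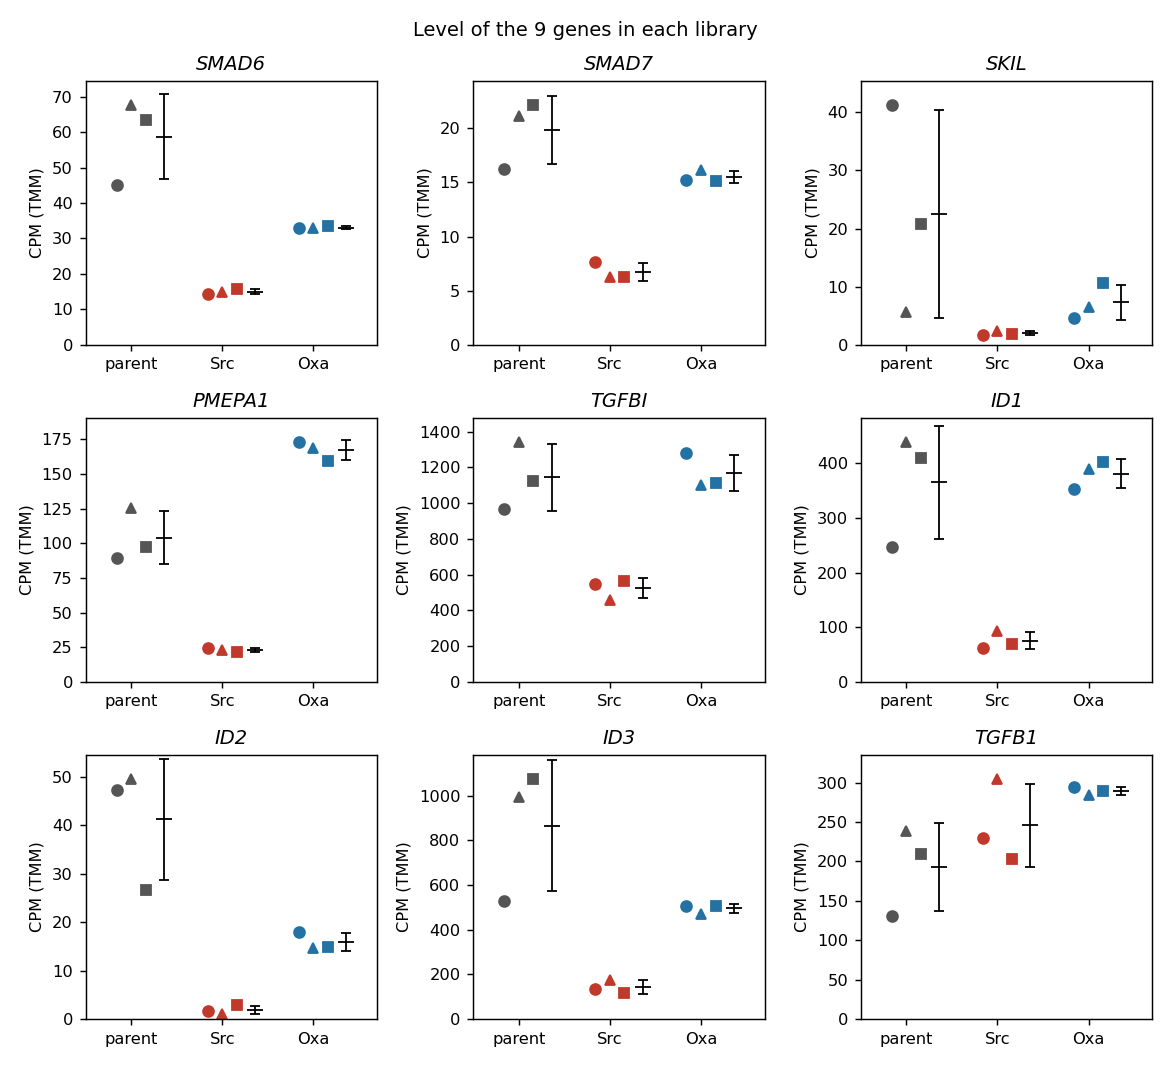
Level of each of the 9 genes in CPM (y axis, linear from 0, TMM-normalised) in the parent MHCC97L (grey), MHCC97L-Src (red) and MHCC97L-Oxa (blue); circles, triangles and squares are replicates 1, 2 and 3, and the bar beside each group is its mean ± SD (n = 3). The MHCC97L-Src libraries lie below every parental and every MHCC97L-Oxa library for 8 genes, and TGFB1 overlaps.

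SMAD6 (NCBI gene 4091, chromosome 15 of GRCh38, 66702228 to 66782848, + strand), an inhibitory SMAD that acts mainly on BMP signals, had 875, 1161 and 1139 counts in the parental libraries. It had 244, 228 and 285 counts in MHCC97L-Src, with 593, 607 and 600 in MHCC97L-Oxa. The 3 lines did not overlap, with the parent highest, MHCC97L-Oxa between and MHCC97L-Src lowest. Mean levels were 58.7 ± 12 CPM in the parent, 15.0 ± 0.606 in MHCC97L-Src, beside 33.1 ± 0.365 in MHCC97L-Oxa (SD, n = 3 each). The log2 fold change was −1.97 ± 0.29 (SE) for MHCC97L-Src and −0.83 ± 0.24 for MHCC97L-Oxa against the parent, and −1.14 ± 0.15 between the resistant lines. After the GC and length correction the values against the parent were −2.24 ± 0.15 and −0.97 ± 0.10. This is the gene whose window holds the SMAD binding element shown above.

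SMAD7 (NCBI gene 4092, chromosome 18, 48919853 to 48952052, − strand), the inhibitory SMAD that blocks both branches, was a low-count gene. Its counts were 316, 362 and 398 in the parent, 129, 96 and 114 in MHCC97L-Src, with 275, 299 and 271 in MHCC97L-Oxa. MHCC97L-Src was lowest without overlap. In CPM the parent and MHCC97L-Oxa came close to each other, with the lowest parental library at 16.3 CPM and the highest MHCC97L-Oxa library at 16.2 CPM. Against the parent its log2 fold change was −1.56 ± 0.37 for MHCC97L-Src and −0.35 ± 0.30 for MHCC97L-Oxa. At a GC content of 63.7% SMAD7 is the most GC-rich of the 9 genes, and after correction these values were −2.11 ± 0.25 and −0.78 ± 0.18.

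SKIL (NCBI gene 6498, chromosome 3, 170357678 to 170396835, + strand) encodes SnoN, a nuclear repressor that holds SMAD target genes off until TGF-beta triggers its breakdown. Its counts were 801, 95 and 373 in the parent, 28, 37 and 35 in MHCC97L-Src, with 84, 121 and 191 in MHCC97L-Oxa. The parental libraries alone differed from each other by more than the MHCC97L-Oxa libraries did from MHCC97L-Src, and MHCC97L-Oxa overlapped the parent. MHCC97L-Src lay below both. With 33.4% GC, SKIL is the most AT-rich of the 9 genes, and the GC and length fit placed it 1.75 log2 units above the mean of the libraries in the first parental library and 0.49 below it in the second. Its log2 fold change for MHCC97L-Src against the parent was −3.49 ± 0.71, and −1.83 ± 0.27 after correction. For MHCC97L-Oxa against the parent it was −1.63 ± 0.68, and −0.41 ± 0.25 after correction. Between the resistant lines, which do not involve the first parental library, it was −1.87 ± 0.34, and −1.41 ± 0.26 after correction.

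PMEPA1 (NCBI gene 56937, chromosome 20, 57648392 to 57711536, − strand), a membrane protein that binds receptor SMADs, had 1734, 2157 and 1746 counts in the parent. It had 413, 354 and 395 counts in MHCC97L-Src, with 3123, 3124 and 2850 in MHCC97L-Oxa. The resistant lines lay on opposite sides of the parent, and no library of any line overlapped another line. Mean levels were 104 ± 19.1 CPM in the parent, 23.1 ± 1.38 in MHCC97L-Src, beside 167 ± 7.19 in MHCC97L-Oxa. Against the parent the fitted log2 fold change was −2.17 ± 0.26 for MHCC97L-Src and 0.68 ± 0.20 for MHCC97L-Oxa. Between the resistant lines it was −2.86 ± 0.12. At 51.6% GC the correction moved these values little, to −2.12 ± 0.17, 0.74 ± 0.14 and −2.87 ± 0.09. The antisense gene NKILA overlaps PMEPA1 exons and has no row in the tables. The libraries were stranded but the counting's strand setting is not given in the sources used here, so reads of NKILA cannot be told apart from those of PMEPA1.

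TGFBI (NCBI gene 7045, chromosome 5, 136028895 to 136063818, + strand) was the most counted of the 9 genes in every line. It had 18728, 23005 and 20202 counts in the parent, 9207, 7058 and 10308 in MHCC97L-Src, with 23144, 20392 and 19962 in MHCC97L-Oxa. MHCC97L-Src was lower than both other lines without overlap, and MHCC97L-Oxa overlapped the parent. Means were 1144 ± 189 CPM in the parent, 523 ± 55.7 in MHCC97L-Src, beside 1167 ± 100 in MHCC97L-Oxa. Its fitted log2 fold change was −1.13 ± 0.24 for MHCC97L-Src and 0.03 ± 0.21 for MHCC97L-Oxa against the parent, and −1.16 ± 0.12 between the resistant lines.

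ID1 (NCBI gene 3397, chromosome 20, 31605283 to 31606515, + strand) had 4795, 7532 and 7366 counts in the parent, 1058, 1431 and 1277 in MHCC97L-Src, with 6373, 7189 and 7215 in MHCC97L-Oxa. MHCC97L-Src lay far below both other lines, which overlapped. The first parental library was the lowest of the 6 high ones. Means were 365 ± 103 CPM in the parent, 75.3 ± 16.02 in MHCC97L-Src, beside 382 ± 25.7 in MHCC97L-Oxa. Its fitted log2 fold change was −2.28 ± 0.30 for MHCC97L-Src against the parent and −2.35 ± 0.16 against MHCC97L-Oxa. For MHCC97L-Oxa against the parent it was 0.06 ± 0.25, and −0.24 ± 0.09 after the GC and length correction.

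ID3 (NCBI gene 3399, chromosome 1, 23557918 to 23559794, − strand) was the most expressed of the 3 ID genes per length. It had 10268, 17081 and 19297 counts in the parent, 2272, 2706 and 2145 in MHCC97L-Src, with 9180, 8712 and 9093 in MHCC97L-Oxa. The 3 lines did not overlap in CPM, but the lowest parental library, the first, was at 529 CPM and the highest MHCC97L-Oxa library at 508 CPM. The log2 fold change was −2.60 ± 0.33 for MHCC97L-Src and −0.80 ± 0.28 for MHCC97L-Oxa against the parent, and −1.80 ± 0.15 between the resistant lines. After the GC and length correction these values were −2.99 ± 0.13, −1.07 ± 0.10 and −1.92 ± 0.08.

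ID2 (NCBI gene 3398, chromosome 2, 8678845 to 8684453, + strand) differed most. Its counts were 920, 850 and 480 in the parent, 27, 17 and 51 in MHCC97L-Src, with 326, 272 and 265 in MHCC97L-Oxa. The 3 lines did not overlap, and all 3 MHCC97L-Src libraries lay above the floor of 3 counts. Means were 41.2 ± 12.6 CPM in the parent, 1.83 ± 0.869 in MHCC97L-Src, beside 15.9 ± 1.91 in MHCC97L-Oxa. In the fits ID2 had a log2 fold change of −4.48 ± 0.50 for MHCC97L-Src and −1.38 ± 0.32 for MHCC97L-Oxa against the parent, and −3.09 ± 0.31 between the resistant lines. At 44.2% GC, the GC and length fit placed ID2 1.06 log2 units above the mean of the libraries in the first parental library. After correction the 3 values were −4.0 ± 0.44, −1.06 ± 0.35 and −2.94 ± 0.23. The antisense gene ID2-AS1 overlaps ID2 exons and has no row in the tables, so its reads cannot be told apart from those of ID2 either.

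The 3 ID genes also differed in their proportions within a library. Per length, ID1, ID2 and ID3 together made up 796 to 1233 FPKM in the parent, 163 to 205 in MHCC97L-Src and 730 to 813 in MHCC97L-Oxa. ID3 and ID1 have transcripts of nearly the same length (1251 and 1233 bases) and GC content (57.1% and 58.6%), which makes their ratio little open to either property. The FPKM of ID3 was 2.05, 2.09 and 2.47 times that of ID1 in the parental libraries, 1.90, 1.72 and 1.65 times in MHCC97L-Src, and 1.45, 1.17 and 1.19 times in MHCC97L-Oxa. The 3 lines did not overlap in this ratio, and ID3 was above ID1 in all 9 libraries. ID1 exceeded ID2 by 7.18 to 19.0 times in the parent, 24.0 to 37.5 times in MHCC97L-Oxa and 33.3 to 110 times in MHCC97L-Src, where the last 2 ranges overlap. ID1 and ID2 differ in GC content (58.6% and 44.2%), so their uncorrected ratio is open to the differences between libraries by GC content.

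TGFB1 (NCBI gene 7040, chromosome 19, 41301587 to 41353911, − strand), the ligand, did not follow the other 8. Its counts were 2526, 4093 and 3758 in the parent, 3891, 4669 and 3695 in MHCC97L-Src, with 5308, 5258 and 5190 in MHCC97L-Oxa. MHCC97L-Src overlapped both other lines, and MHCC97L-Oxa lay above the parent without overlap. Means were 193 ± 56.1 CPM in the parent, 246 ± 52.6 in MHCC97L-Src, beside 289 ± 4.70 in MHCC97L-Oxa. Its fitted log2 fold change was 0.35 ± 0.29 for MHCC97L-Src and 0.59 ± 0.25 for MHCC97L-Oxa against the parent, and −0.24 ± 0.14 between the resistant lines. The direction of the first was not stable: it was −0.05 ± 0.11 after the correction for GC content and length. With the same correction the second was smaller, at 0.33 ± 0.10, and the third was −0.39 ± 0.07. Exons of HNRNPUL1 on the other strand overlap TGFB1, which leaves the assignment of some reads uncertain. Per length, TGFBI exceeded its inducer TGFB1 by 6.18, 5.02 and 4.89 times in the parent, 3.96, 3.52 and 3.42 times in MHCC97L-Oxa and 2.197, 1.37 and 2.55 times in MHCC97L-Src, and these ranges do not overlap. The 2 genes differ in GC content (53.8% and 63.45%), so these uncorrected ratios are open to the differences between libraries by GC content.

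Compared between genes on the FPKM scale, ID3 was the highest of the 9 in the parent at 723 ± 187 FPKM, followed by ID1 at 327 ± 68.5 and TGFBI at 293 ± 31.4. ID1 and TGFBI do not differ beyond their spread there. TGFB1 at 55.4 ± 11.2, ID2 at 28.5 ± 8.81 and PMEPA1 at 18.5 ± 2.34 came next, and SMAD6 at 8.07 ± 1.15, SMAD7 at 6.51 ± 0.646 and SKIL at 3.04 ± 2.45 were lowest. In MHCC97L-Src TGFBI at 127 ± 21.9 FPKM and ID3 at 113 ± 14.1 led without a difference beyond their spread, TGFB1 and ID1 followed at 64.2 ± 9.83 and 64.7 ± 9.90, and ID2 stood at 1.20 ± 0.623. In MHCC97L-Oxa the order was ID3 at 423 ± 15.7, ID1 at 335 ± 38.0, TGFBI at 296 ± 20.8, TGFB1 at 81.4 ± 0.746 and PMEPA1 at 29.5 ± 1.28 FPKM. ID1 and TGFBI again lay within their spread of each other.

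**Figure D2:**
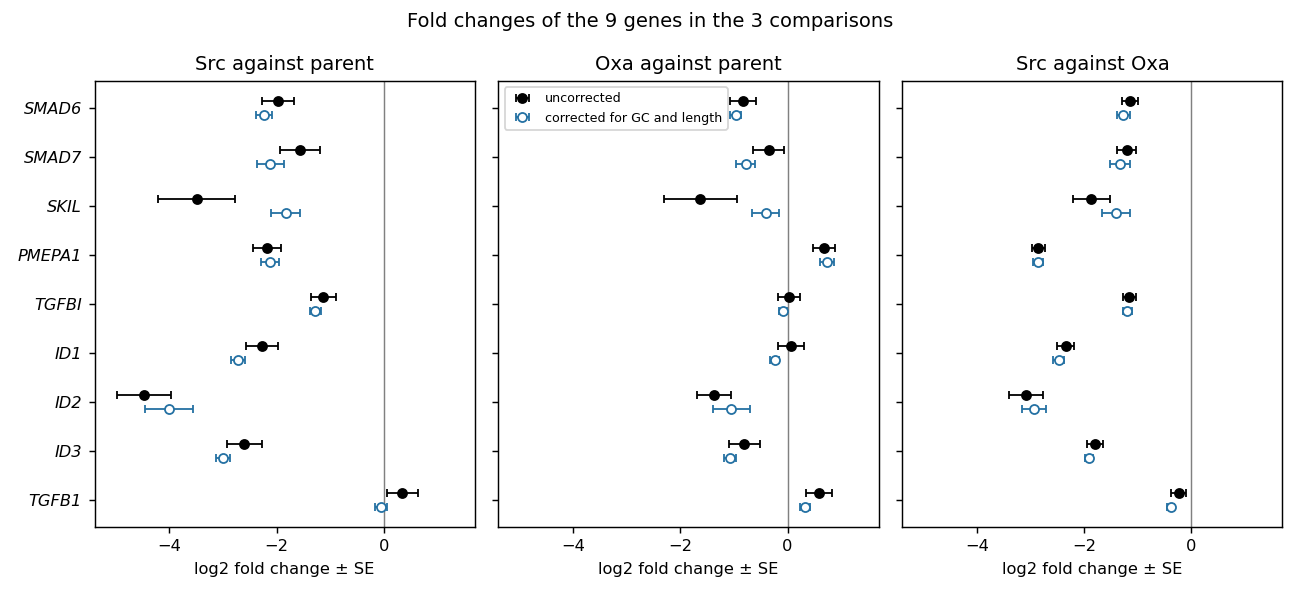
Log2 fold change (x axis) of the 9 genes in the 3 comparisons, each with its standard error, from edgeR fits of 3 against 3 libraries without (black) and with (open blue) correction for GC content and gene length. In MHCC97L-Src 8 genes lie left of 0 in both comparisons, from −1.13 to −4.48 against the parent, and SKIL moves most with the correction.

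Counted by edgeR's quasi-likelihood test at an adjusted p under 0.05 over all genes, 6 of the 9 genes were called in MHCC97L-Src against the parent, all lower (PMEPA1, SMAD6, SKIL, ID1, ID2 and ID3), where 0.698% of all 12037 genes tested were called lower and 2.13% were called in either direction. SMAD7, TGFBI and TGFB1 were not called. Since these genes were chosen for such differences, nothing follows from the count. The libraries of 8 genes lay below every parental library, as did those of 12.2% of all genes tested. The median log2 fold change of the 9 genes was −2.17, and that of all genes −0.16. With the GC and length correction 8 of the 9 were called, SMAD7 and TGFBI being added, beside 1357 of all 12037 genes. The count rests on single libraries, as does that of all genes. It was 2 without MHCC97L replicate 3 (22 of all genes), and 8 without MHCC97L replicate 1 or 2 (672 and 3419 of all genes). Without MHCC97L-Src replicates 1, 2 and 3 it was 4, 3 and 1 (69, 47 and 27 of all genes). The log2 fold changes of the 8 genes stayed between −4.91 and −0.94 whichever library was left out.

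In MHCC97L-Oxa against the parent 0 of the 9 genes were called by edgeR, where 0.953% of 12064 genes were called, with 6 of the 9 at an unadjusted p under 0.05. DESeq2 called 2, PMEPA1 higher and ID2 lower, beside 893 of all genes, and limma-trend on FPKM called 0 of the 9. For 4 genes (SMAD6, SMAD7, ID2 and ID3) all MHCC97L-Oxa libraries lay below the parent, as did 9.93% of all genes, and for 2 (PMEPA1 and TGFB1) all lay above it, as did 18.2%. The medians were −0.35 for the 9 genes and −0.19 for all genes. With the GC and length correction 4 were called, PMEPA1 higher and SMAD6, SMAD7 and ID3 lower, beside 1617 of all 12064 genes. Leaving out the first parental library gave 5 calls, beside 2251 of 12168 genes. Leaving out the second gave 3, beside 2705 of 12256 genes. Calls thus rose over all genes under these settings, and not in the 9 alone.

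Between the resistant lines 8 of the 9 genes were called, all lower in MHCC97L-Src and all but TGFB1, where 2.52% of 11994 genes were called lower and 4.64% in either direction. The same 8 lay below every MHCC97L-Oxa library without overlap, as did 12.7% of all genes. The medians were −1.80 and −0.02. This comparison leaves out the parental libraries, and 7 to 9 of the 9 genes were called whichever library was left out, beside 167 to 1617 of all genes. With all 9 libraries in one fit 6 were called, SMAD7 and SKIL being lost, beside 86 of all genes. With the GC and length correction TGFB1 was called as well, at a log2 fold change of −0.39 ± 0.07. It was also called without MHCC97L-Src replicate 2, at −0.43 ± 0.09. Both comparisons with the parent share its libraries and are not independent of each other. The plot of the shift under correction shows that AT-rich SKIL and ID2 moved up and the GC-rich genes down.

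**Figure D3:**
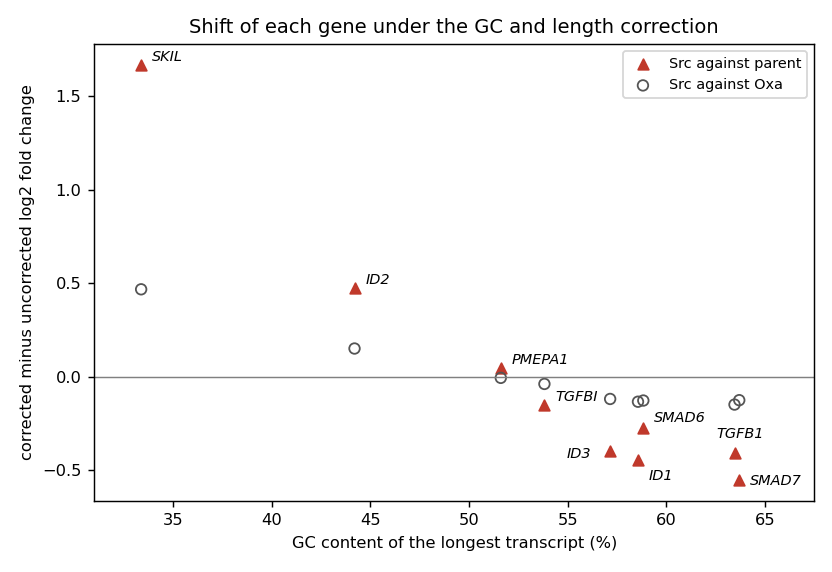
Corrected minus uncorrected log2 fold change (y axis) against GC content of the longest transcript in percent (x axis) for the 9 genes, in MHCC97L-Src against the parent (red triangles) and against MHCC97L-Oxa (open circles). SKIL at 33.4% GC moved from −3.49 to −1.83 against the parent, and the shifts against MHCC97L-Oxa are smaller for all 9 genes.

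The genes most like PMEPA1 over the 9 libraries, by Pearson's correlation of log2 CPM among 11023 genes with at least 10 counts in every library, were AXL (r = 0.988), ABCC3 (r = 0.987) and ADGRG1 (r = 0.986). AXL encodes a receptor tyrosine kinase and ABCC3 a transporter of organic anions. Those most like ID1 were CD82 (r = 0.991), ADGRG1 (r = 0.984) and HTR1D (r = 0.981). CD82, a tetraspanin known as a suppressor of metastasis, stood at a mean of 38.0 CPM in the parent, 6.14 in MHCC97L-Src, beside 46.9 in MHCC97L-Oxa. The 9 points of each correlation are 3 libraries of 3 lines, so any gene with a similar order and spacing of the 3 lines gives a high r.

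The rest of the pathway was read from a list of 94 genes. Of 69 tested, 12 were called in MHCC97L-Src against the parent, 5 higher and 7 lower, where 1.43% of all genes were called higher. In MHCC97L-Oxa against the parent 6 of 70 were called, 5 higher and 1 lower, where 0.771% of all genes were called higher and 0.182% lower. Between the resistant lines 17 of 69 were called, 2 higher and 15 lower in MHCC97L-Src, where 2.12% of all genes were called higher. With the GC and length correction 24, 19 and 25 were called, beside 1357, 1617 and 1194 of all genes. All 6 calls in MHCC97L-Oxa against the parent ended when any 1 of its libraries, or MHCC97L replicate 3, was left out. There 28 and 23 were called without MHCC97L replicates 1 and 2, beside 2251 and 2705 of all genes. In MHCC97L-Src against the parent 3 or 4 were called without MHCC97L replicate 3 or any 1 MHCC97L-Src library, beside 22 to 69 of all genes. Without MHCC97L replicate 1 the count was 18, and without replicate 2 it was 30 (672 and 3419 of all genes). The median log2 fold changes were −0.25, −0.02 and −0.28, to be read beside −0.16, −0.19 and −0.02 for all genes. Of the genes that the deposited annotation assigns to KEGG TGF-beta signaling, without the 9, 3 of 58 tested were called in MHCC97L-Src against the parent, 0 of 58 in MHCC97L-Oxa (9 at an unadjusted p under 0.05, and 5 by DESeq2) and 6 of 58 between the resistant lines. With the correction these were 7, 4 and 10.

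Of 16 TGF-beta family ligands and latency proteins, 4 were called higher in MHCC97L-Src than in the parent (10 tested). In MHCC97L-Oxa 2 were called higher than in the parent (9 tested), and none was called lower in either line. Of all genes tested, 1.43% and 0.771% were called higher in these comparisons. The list was drawn up with earlier results of these data known, so nothing follows from the counts. GDF15, a divergent family member known as a stress-induced cytokine, had 214, 255 and 250 counts in the parent, 1390, 1699 and 1580 in MHCC97L-Src, with 866, 922 and 824 in MHCC97L-Oxa. Against the parent its log2 fold change was 2.81 ± 0.28 for MHCC97L-Src (adjusted p = 0.00598) and 1.85 ± 0.26 for MHCC97L-Oxa (adjusted p = 0.0271), and MHCC97L-Src exceeded MHCC97L-Oxa by 0.95 ± 0.14 (adjusted p = 0.00437). The ligand TGFB3 rose in MHCC97L-Src, from 314, 365 and 302 counts in the parent to 860, 680 and 879 (log2 fold change 1.40 ± 0.28, adjusted p = 0.0453). In MHCC97L-Oxa it had 472, 398 and 319 counts, and MHCC97L-Src was higher than MHCC97L-Oxa by 1.13 ± 0.17 (adjusted p = 0.00437). INHBE, an activin subunit made chiefly by liver, went from 25, 60 and 41 counts to 248, 265 and 234 in MHCC97L-Src (log2 fold change 2.66 ± 0.49, adjusted p = 0.0344). MHCC97L-Oxa held 228, 253 and 257 counts of INHBE, also above every parental library (2.52 ± 0.46, adjusted p = 0.0519). LTBP2, a latent TGF-beta binding family member of the matrix, was lower in MHCC97L-Src than in MHCC97L-Oxa by a log2 fold change of −1.20 ± 0.14 (adjusted p = 0.00113). LTBP2 stood at 20.9 ± 0.579 CPM in MHCC97L-Src, within the parental range around 19.0 ± 3.75, and at 48.0 ± 4.15 CPM in MHCC97L-Oxa, above every parental library.

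Of 13 BMP ligands, BMP6 was the 1 called by edgeR, lower in MHCC97L-Src than in MHCC97L-Oxa by −1.01 ± 0.22 (adjusted p = 0.028). It had 691, 601 and 340 counts in the parent, 636, 404 and 924 in MHCC97L-Src, with 1496, 1455 and 1237 in MHCC97L-Oxa, so that MHCC97L-Src overlapped the parent and MHCC97L-Oxa lay above both. Of 14 extracellular antagonists, the BMP inhibitor GREM1 fell in MHCC97L-Src, from 1124, 147 and 310 counts to 29, 17 and 58 (log2 fold change −3.79 ± 0.79, adjusted p = 0.0496). MHCC97L-Oxa, at 75, 111 and 82 counts, also lay below every parental library (−2.50 ± 0.68, adjusted p = 0.146). The parental libraries ranged from 8.57 to 57.9 CPM, with the first highest, and after the GC and length correction its log2 fold change was −2.25 ± 0.39 in MHCC97L-Src and −1.29 ± 0.24 in MHCC97L-Oxa.

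No type I or type II receptor was called in any of the 3 comparisons by edgeR, among 10, 11 and 10 tested, with 2, 0 and 1 at an unadjusted p under 0.05. DESeq2 called 2 receptors lower in MHCC97L-Src against the parent and 0 in the other comparisons, and with the GC and length correction 1 receptor (ENG) was called higher in MHCC97L-Src than in MHCC97L-Oxa. The co-receptor ENG had the highest mean level of the receptors, at 21.6 ± 3.65 FPKM in the parent, 28.3 ± 1.65 in MHCC97L-Src, beside 22.4 ± 0.893 in MHCC97L-Oxa, and BMPR1B had 0 counts in all libraries. ACVR1, named after its values were seen, had 405, 231 and 142 counts in the parent, 164, 89 and 209 in MHCC97L-Src, with 231, 185 and 163 in MHCC97L-Oxa, with all 3 lines overlapping. No receptor or common SMAD was called either, among 5, 6 and 5 tested, with 1 at an unadjusted p under 0.05 in each comparison. DESeq2 called 1 SMAD, lower in MHCC97L-Src against the parent, and the corrected fit 1 (SMAD3), higher in MHCC97L-Src than in MHCC97L-Oxa. SMAD3 was the most expressed, at 5.47 ± 0.594 FPKM in the parent, 6.29 ± 1.05 in MHCC97L-Src, beside 5.22 ± 0.513 in MHCC97L-Oxa, and SMAD9 the least, with 3 to 60 counts per library.

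Of 10 intracellular regulators, 2 were lower in MHCC97L-Src than in MHCC97L-Oxa and 0 were called in either comparison with the parent (5 and 1 at an unadjusted p under 0.05, and 3 and 0 by DESeq2). TGIF1, a nuclear co-repressor of SMAD2 and SMAD3, had 1417, 1145 and 1367 counts in MHCC97L-Src, with 2157, 2151 and 2190 in MHCC97L-Oxa (log2 fold change −0.62 ± 0.11, adjusted p = 0.0105), with the parent between at 1745, 1681 and 1708. LDLRAD4, a relative of PMEPA1 that likewise binds receptor SMADs, had 7, 5 and 13 counts in MHCC97L-Src, with 66, 39 and 21 in MHCC97L-Oxa (log2 fold change −2.22 ± 0.51, adjusted p = 0.0373). At such counts its values carry a large counting error.

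Other TGF-beta targets made up most of the calls between the resistant lines: 11 of 16 were lower in MHCC97L-Src than in MHCC97L-Oxa and none was higher, where 2.52% of all genes were called lower. The list was drawn up with earlier results of these data known, so the count is no independent evidence of a direction. Against the parent 7 were called in MHCC97L-Src, 1 higher and 6 lower, and 4 in MHCC97L-Oxa, 3 higher and 1 lower, and with the GC and length correction 10 and 7. FN1, the matrix protein fibronectin, had 8991, 5894 and 6152 counts in the parent, 2976, 2629 and 2872 in MHCC97L-Src, with 15711, 18094 and 14849 in MHCC97L-Oxa. It fell in MHCC97L-Src (log2 fold change −1.19 ± 0.22, adjusted p = 0.0364), rose in MHCC97L-Oxa (1.22 ± 0.21, adjusted p = 0.0428), and differed by −2.41 ± 0.11 between them (adjusted p = 4.84e-06). The connective tissue growth factor CTGF, whose current symbol is CCN2, fell from 478, 325 and 330 counts to 51, 25 and 70 in MHCC97L-Src (−2.86 ± 0.46, adjusted p = 0.0214), and MHCC97L-Oxa held 269, 308 and 242. JUNB, a component of the transcription factor AP-1, was lower in MHCC97L-Src than in MHCC97L-Oxa by −0.84 ± 0.12 (adjusted p = 0.00457). Its MHCC97L-Src libraries, at 239 to 318 CPM, lay within the parental range of 208 to 389 CPM, and those of MHCC97L-Oxa, at 455 to 501 CPM, above it.

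**Figure D4:**
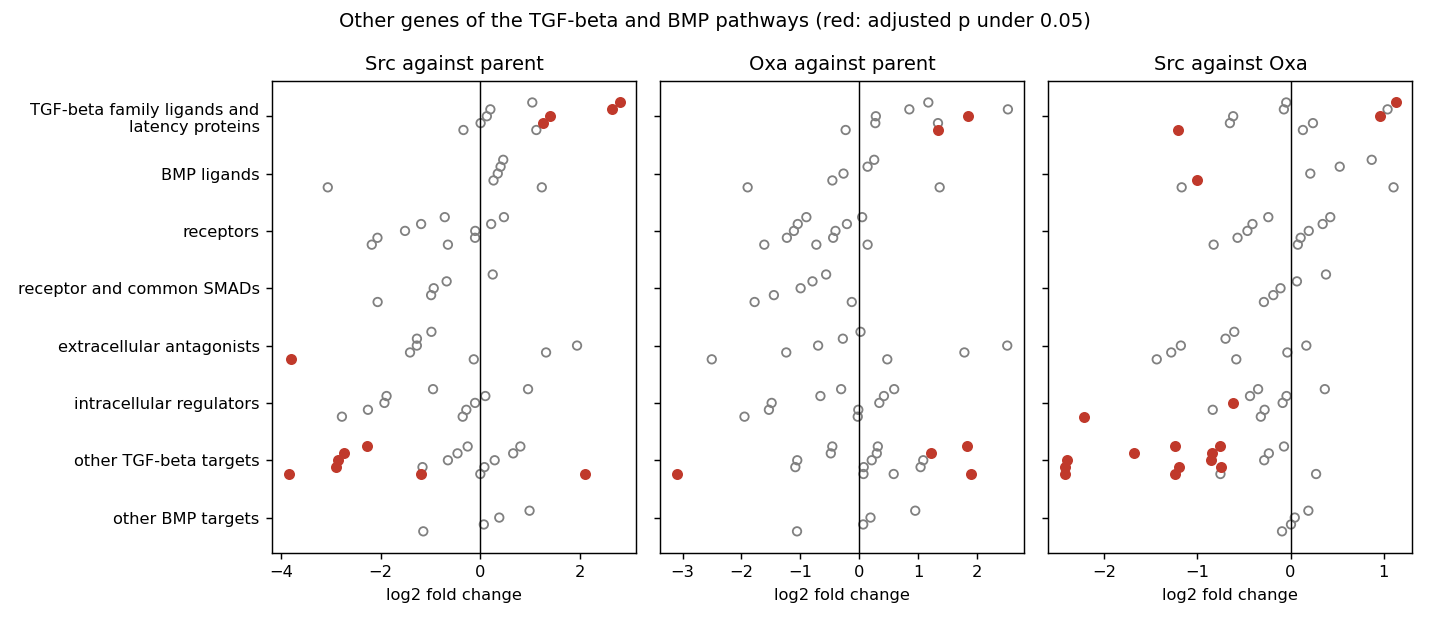
Log2 fold change (x axis) of the tested genes of the pathway list other than the 9, by role (rows), in the 3 comparisons; each point is a gene, red where its adjusted p is under 0.05, and the horizontal scales differ between panels. Between the resistant lines 11 of 16 other TGF-beta targets are red, all left of 0, and no receptor or SMAD is red in any panel.

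TAGLN and TGM2 were called in both comparisons with the parent, and both were named after their values were seen. TAGLN, a smooth muscle actin-binding protein, fell in both resistant lines, from 645, 1047 and 1280 counts in the parent to 52, 64 and 77 in MHCC97L-Src (log2 fold change −3.85 ± 0.41, adjusted p = 0.00612) and 134, 100 and 116 in MHCC97L-Oxa (−3.10 ± 0.37, adjusted p = 0.0171). TGM2, transglutaminase 2, rose in both, from 1118, 1816 and 1620 counts to 6096, 6057 and 6260 (2.12 ± 0.27, adjusted p = 0.0114) and 5537, 5360 and 5545 (1.84 ± 0.25, adjusted p = 0.0271). Of 6 other BMP targets 4 were tested and 0 were called in any comparison (2, 2 and 0 at an unadjusted p under 0.05, and 1, 1 and 0 by DESeq2). With the GC and length correction 2 of the 4, 1 higher and 1 lower, were called in each comparison with the parent and 0 between the resistant lines.

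Single markers of other cells differed between the lines. The 6 fibroblast markers summed to 19.9 to 34.5 FPKM in the parent, 10.8 to 13.4 in MHCC97L-Src and 22.8 to 25.5 in MHCC97L-Oxa, lowest in the same line as the 8 genes. In MHCC97L-Src DCN, PDGFRB and LUM had means of 2.39, 1.39 and 0.471 FPKM, against 10.0, 3.89 and 3.01 in the parent. COL1A1, which also stands among the TGF-beta targets, was not lower (7.96 against 7.81 FPKM). COL3A1 and PDGFRA reached at most 0.0814 FPKM. Single markers were named after their values were seen. The 7 immune and endothelial markers summed to 14.3 to 21.9, 23.3 to 27.6 and 43.2 to 43.7 FPKM, with PTPRC, CD3E and KDR at 0 counts throughout. Most of these sums was CD68, at means of 18.2, 22.1 and 40.4 FPKM. Their part in the results was not tested.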

How the data were processed

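Poly(A) RNA was sequenced from 3 libraries each of the parent and both resistant lines. According to the labels the libraries were stranded and read from both ends. The submitters' processing notes name Trimmomatic 0.36, HISAT2 2.2.1.0 and GRCh38.p12. The counting program, its strand setting and the program behind the FPKM values are not given in the sources used here. The authors deposited raw read counts per gene, without normalization, and FPKM values, both for 20030 genes.

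The 9 genes and all gene lists were chosen with earlier results of these data known. Each comparison was fitted to the counts of its 6 libraries by edgeR's quasi-likelihood test after filterByExpr (minimum count 10) and TMM normalization, with Benjamini-Hochberg adjustment over all genes tested. A gene was called at an adjusted p under 0.05. Each standard error was obtained as the size of the log2 fold change over the root of its F statistic. The study calls its experiments independent, but where libraries share a culture the p-values measure technical spread only. CPM and log2 CPM (prior count 2) were computed over all 9 libraries. The SDs and standard errors hold the spread between libraries as well as counting error. The floor of 3 counts covers counting error only.

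GC content and length were those of the longest GENCODE 29 transcript, found for 19343 genes (96.6%). Each library's deviation was fitted by natural splines with 5 degrees of freedom each, and the fit entered edgeR as offsets. Alternatives were DESeq2's Wald test, DESeq2 size factors, total counts, no filter, a replicate block, one fit of all 9 libraries, limma-trend on log2(FPKM + 1) and log2(FPKM + 0.1), and leaving out each library.

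Named in the text are the 9 genes, up to 4 called genes of each list by smallest adjusted p, the receptors and SMADs of highest and lowest mean FPKM, and the 3 genes most like PMEPA1 and ID1. Exceptions are stated, and 1 called target and 1 marker are not reported here. The fits were run on simulated counts with a single dispersion for all genes and without a GC effect. This checks the code and does not show how often the fits err on these libraries. Software was DESeq2 1.42.0, limma 3.58.1 and edgeR 4.0.16 in R 4.3.3, and matplotlib 3.10.9 and pandas 2.3.3 in Python 3.11.15.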

Additional observations from a re-analysis of the deposited data

Results flagged for a closer look

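Of 78 tested genes, the 9 and the rest of the pathway list, 3 had every MHCC97L-Src library on one side of the parental libraries and every MHCC97L-Oxa library on the other. All 3 were lower in MHCC97L-Src and higher in MHCC97L-Oxa. Among 11023 genes with at least 10 counts in every library, 22 showed this order and 2 the opposite one (0.218% together). The 78 genes came from lists drawn up with earlier results of these data known and passed a different count filter. Nothing therefore follows from setting the 3 beside that share. PMEPA1 differed by a log2 fold change of −2.86 between MHCC97L-Src and MHCC97L-Oxa. It is one of the genes chosen for such differences, and its difference was not tested further. FN1 differed by −2.41 ± 0.11 (edgeR, adjusted p = 4.84e-06). TGIF1 differed by −0.62 ± 0.11 (edgeR, adjusted p = 0.0105), and its MHCC97L-Src mean of 77.8 CPM and MHCC97L-Oxa mean of 119 CPM stood around a parental mean of 94.3 CPM, without a call in either comparison with the parent. Groups of 3 libraries were too small for a test of single outlying libraries.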

How the results depend on the processing

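Of the 144 refitted fold changes of the 9 genes in each comparison, 2 changed sign for MHCC97L-Src against the parent, 6 for MHCC97L-Oxa against the parent and 0 between the resistant lines. With the GC and length correction, without and with a replicate block, TGFB1 in MHCC97L-Src against the parent went to −0.054 and −0.052, and TGFBI and ID1 in MHCC97L-Oxa against the parent to −0.087 and −0.088 and to −0.24 and −0.24. Leaving out 1 library each, those 2 ranged from −0.040 (without MHCC97L-Oxa replicate 1) to 0.24 for TGFBI and from −0.059 (without MHCC97L replicate 1) to 0.30 for ID1. The cause was not tested. In MHCC97L-Src against the parent the calls moved from 12 pathway genes to 23 by DESeq2, 24 with all 9 libraries in one fit and 24 with the GC and length correction, and from 256 of all genes to 2114, 1956 and 1357, to 702 without the filter and to 988 with a replicate block. In MHCC97L-Oxa against the parent, 0 of the 9 genes became 2 by DESeq2, 4 with the correction and 3 with the correction and a replicate block. There 6 pathway genes became 17, 19 and 17, and 13 with all 9 libraries, and 115 of all genes became 893, 1617 and 702, 495 with all 9 libraries, 212 by total counts, and 252 and 256 by limma-trend with pseudocounts of 1 and 0.1. Between the resistant lines 8 of the 9 genes became 6 and 17 pathway genes 4 with all 9 libraries, and 556 of all genes became 839 by DESeq2, 86 with all 9 libraries and 1194 with the correction. Leaving out 1 library each gave 1 to 8, 0 to 5 and 7 to 9 of the 9 genes, 3 to 30, 0 to 28 and 8 to 25 pathway genes, and 22 to 3419, 2 to 2705 and 167 to 1617 of all genes, in the order MHCC97L-Src against the parent, MHCC97L-Oxa against the parent, and between the resistant lines. In MHCC97L-Oxa against the parent the low of 2 genes came alike without MHCC97L replicate 3 and without each MHCC97L-Oxa library. Whether replicate numbers pair the libraries could not be settled. The deviations of libraries with the same number correlated between −0.631 and 0.417, and those with different numbers between −0.516 and 0.642. These deviations also carry the differences of single libraries by GC content. The replicate block alone called 7, 0 and 8 of the 9 genes. Depth limits ID2 and SKIL in MHCC97L-Src, at 17 to 51 counts per library.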
